A study of Mus musculus with 2 samples.

Results

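Keratins are the intermediate filament proteins of epithelial cells. Each filament pairs a type I (acidic) with a type II (basic) keratin, and the pair in use changes as a keratinocyte moves outwards: KRT5 and KRT14 in the basal layer, KRT1 and KRT10 in the suprabasal layers, KRT6, KRT16 and KRT17 in wounded, inflamed or psoriatic epidermis and in parts of the hair follicle. The genes were followed here in 2 single-cell libraries of imiquimod-treated mouse skin, and members were all genes whose symbol is Krt followed by a digit and that held at least 20 unique molecular identifiers (UMIs, 1 per captured transcript end) over both libraries. Of 53 such genes listed among 31053 genes, 24 were members. A further 21 held between 1 and 19 UMIs each (166 in all), and 8 held none. Just inside the limit lay Krt77 with 21 UMIs and Krt24 with 26, and just outside it lay Krt76 with 17 and Krt222, Krt19 and Krt71 with 15 each.

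Both libraries came from wild type C57BL/6 mice aged 10 weeks whose ears received imiquimod, a Toll-like receptor 7 agonist that causes psoriasiform inflammation, on each of 5 days. The dermal library (1 sample) and the epidermal library (1 sample) each came from a digested suspension and were captured with a 3′ droplet chemistry. According to the study's methods they were sorted by different gates: every live cell of the epidermis was taken, but of the dermis only live cells that carry CD45, the leukocyte surface protein encoded by Ptprc. How many animals were pooled is not given in the sources used here, and no untreated library was analysed here, so no value below is an effect of imiquimod. With 1 library per tissue there is no replicate check and no test. Intervals are exact 95% intervals for counting error only, UMIs of 1 cell share their droplet, and a gene is said to differ when the ratio passes 2-fold.

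After removal of cells under 200 genes or over 10% mitochondrial UMIs there were 4747 dermal cells with 40392866 UMIs (median 7010 per cell) and 4173 epidermal cells with 105033363 UMIs (median 25918). The labels were checked with marker lists that contain no keratin. Of the epidermal cells, 2806 fell into keratinocyte-like clusters and 868 into immune-like clusters. No dermal cluster was keratinocyte-like: 4219 dermal cells were immune-like and 417 fibroblast-like, in a library sorted for CD45. The fibroblast-like cells, which such a gate is meant to remove, held Ptprc at 73.3 CPM (UMIs of a gene in 1000000 UMIs), against 206 CPM in the dermal immune-like cells, and how they came into the sort was not tested. The libraries shared 30 barcodes among the kept cells.

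The 53 genes lie in the 2 mouse keratin clusters (GRCm38, GENCODE M21 positions, matched by gene identifier for all 53). The type I genes are on chromosome 11 between 99232761 and 100269871, except Krt18, which sits beside its type II partner Krt8 on chromosome 15. The type II genes are on chromosome 15 between 101347444 and 102004482. Members numbered 13 of 28 type I and 11 of 25 type II genes. By role, all 3 basal keratins (Krt14, Krt5, Krt15) and all 4 stress keratins (Krt6a, Krt6b, Krt16, Krt17) were members, as were 5 of 7 suprabasal keratins (Krt1, Krt10, Krt2, Krt80, Krt77). Of the upper follicle and companion layer pair Krt79 was a member and Krt75 was not, with 6 UMIs. Of the other groups, 3 of 6 simple epithelial, 3 of 7 inner root sheath, 2 of 15 hair shaft and 3 of 9 mucosal or other keratins were members.

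Promoter windows are shown for 1 basal keratin, the suprabasal keratins Krt10 and Krt2, which were higher in the spinous-like than in the basal-like clusters, and the follicle keratin Krt79, which was higher in the follicle-like cluster. RefSeq (GRCm38.p6) windows were matched for 15 of 24 members, and those of Krt1, Krt6a, Krt6b, Krt15, Krt16 and Krt17 were not among them. The 250 bases before the start that RefSeq gives are printed, all on the minus strand, with each match to a searched motif in capitals. Krt5 is at chr15:101712906-101713155, Krt10 at chr11:99389365-99389614, Krt2 at chr15:101818170-101818419 and Krt79 at chr15:101940325-101940574.
Krt5: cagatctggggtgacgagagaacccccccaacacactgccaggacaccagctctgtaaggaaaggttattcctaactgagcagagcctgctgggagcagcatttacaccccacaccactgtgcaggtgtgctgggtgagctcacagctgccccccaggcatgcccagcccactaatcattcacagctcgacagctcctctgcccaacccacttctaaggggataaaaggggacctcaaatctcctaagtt
Krt10: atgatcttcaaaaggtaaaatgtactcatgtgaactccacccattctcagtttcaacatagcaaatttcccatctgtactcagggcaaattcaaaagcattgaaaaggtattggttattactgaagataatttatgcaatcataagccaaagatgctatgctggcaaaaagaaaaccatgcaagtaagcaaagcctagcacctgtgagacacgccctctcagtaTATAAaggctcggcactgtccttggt
Krt2: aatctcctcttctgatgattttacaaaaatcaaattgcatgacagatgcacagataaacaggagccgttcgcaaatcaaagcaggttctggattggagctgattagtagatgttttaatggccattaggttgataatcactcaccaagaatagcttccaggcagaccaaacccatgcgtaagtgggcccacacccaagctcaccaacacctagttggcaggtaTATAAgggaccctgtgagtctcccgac
Krt79: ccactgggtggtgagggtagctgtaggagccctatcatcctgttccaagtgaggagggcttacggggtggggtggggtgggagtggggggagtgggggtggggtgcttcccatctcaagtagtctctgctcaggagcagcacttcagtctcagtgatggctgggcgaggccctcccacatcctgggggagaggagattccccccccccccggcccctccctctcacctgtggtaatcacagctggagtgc

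The motifs were the TATA box core TATAA, the AP-1 site TGANTCA, the AP-2 site GCCNNNGGC and the STAT site TTCNNNGAA, searched on both strands. TATAA began 26 bases before the start in Krt10 and 27 bases before it in Krt2, and no searched motif was found in the windows of Krt5 and Krt79. Among the 15 member windows, 8 held TATAA, against 22.8% of all 32851 promoter windows. By the GENCODE positions 4 of the 15 windows reached into the gene itself, that of Krt14 with all 250 bases, Krt8 with 140, Krt18 with 36 and Krt23 with 17, so these are not wholly upstream sequence in that annotation. Of the other 11 windows, among them the printed ones, 7 held TATAA. AP-1 was in 0 of the 15 (6.75% of all), AP-2 in 2 (13.7% of all) and STAT in 3 (7.02% of all). These matches describe letters in a window and say nothing of binding.

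Keratins took 2.76% of all UMIs in the epidermal library and 0.00478% in the dermal library (95% interval 0.00457 to 0.00500%). Krt14 alone gave 65.4% and Krt5 19.0% of the epidermal keratin UMIs, followed by Krt6a with 4.72%, Krt17 with 3.98%, Krt16 with 2.78% and Krt1 with 1.47%. These are shares of transcript ends and are not divided by length, since each molecule is counted once at its 3′ end. In this comparison 20 of 24 members were at least 2-fold higher in the epidermal library, where 24.9% of the 15140 genes measured were, and 4 were at least 2-fold lower, where 30.9% were. The median log2 ratio was 4.99 over the members and -0.03 over all genes. Members and all genes measured had to hold 20 UMIs over both libraries. Of the members, 5 held 0 in the dermal library and so passed that rule through the epidermal library alone. Krt16, Krt1, Krt79, Krt42, Krt18, Krt27, Krt23, Krt24 and Krt77 held under 20 dermal UMIs, and also needed their epidermal UMIs to pass. Krt8 and Krt4, with 1 and 4 epidermal UMIs, passed through the dermal library. The rule thus had a part in the counts of members higher and lower. The comparison is of all live epidermal cells with CD45-sorted dermal cells, so tissue and gate cannot be told apart in any of these ratios.

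Krt14, the type I partner of the basal pair, held 1892283 epidermal and 353 dermal UMIs. Its level of 18016 CPM was 2062-fold the dermal one (1857 to 2295). Krt5, its type II partner, held 549144 and 78 UMIs, a ratio of 2708 (2169 to 3425). Krt15, a type I keratin of basal and bulge cells, held 16954 UMIs in the epidermal library and 0 in the dermal one, and was at least 2173-fold higher, taking 3 counts as the limit of a count of 0. Every epidermal cell held a keratin UMI, against 17.8% of dermal cells.

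The stress keratins were higher in the epidermal library too. Krt6a held 136534 epidermal and 87 dermal UMIs, a 604-fold difference (489 to 754). Krt16 held 80539 and 11, a 2816-fold difference (1574 to 5641), and Krt6b 18079 and 0, at least 2318-fold. Krt17, which pairs with KRT6 in activated and follicular keratinocytes, held 115360 and 468, a 94.8-fold difference (86.6 to 104). Of the suprabasal keratins, Krt1 was 8178-fold higher (2264 to 67528) on 2 dermal UMIs and Krt2 at least 972-fold on none. Krt10 was only 35.2-fold higher (31.4 to 39.5), with 305 dermal UMIs, and Krt80 2.39-fold (2.14 to 2.68), with 359. Krt79 was 340-fold higher (156 to 926).

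The dermal cell richest in keratin moved several of these ratios by more than 3-fold. It held 810 keratin UMIs among 19134, or 41.9% of all keratin UMIs in the dermal library, and the next richest cell held 15. Krt17 gave 408 of them, Krt14 277, Krt6a 65 and Krt5 57. The cell fell in a macrophage-like cluster, yet it held 0 Ptprc UMIs, 2 UMIs of the macrophage list and 199 of the keratinocyte list, and its barcode was not one that the epidermal library shares. A gate on CD45 is meant to remove such a cell, and how it came into the library was not tested. Without it the dermal share was 0.00278%, and the ratio was 739-fold for Krt17, 9571-fold for Krt14, 2386-fold for Krt6a and 10052-fold for Krt5. Both dermal Krt42 UMIs were in it.

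**Figure D1:**
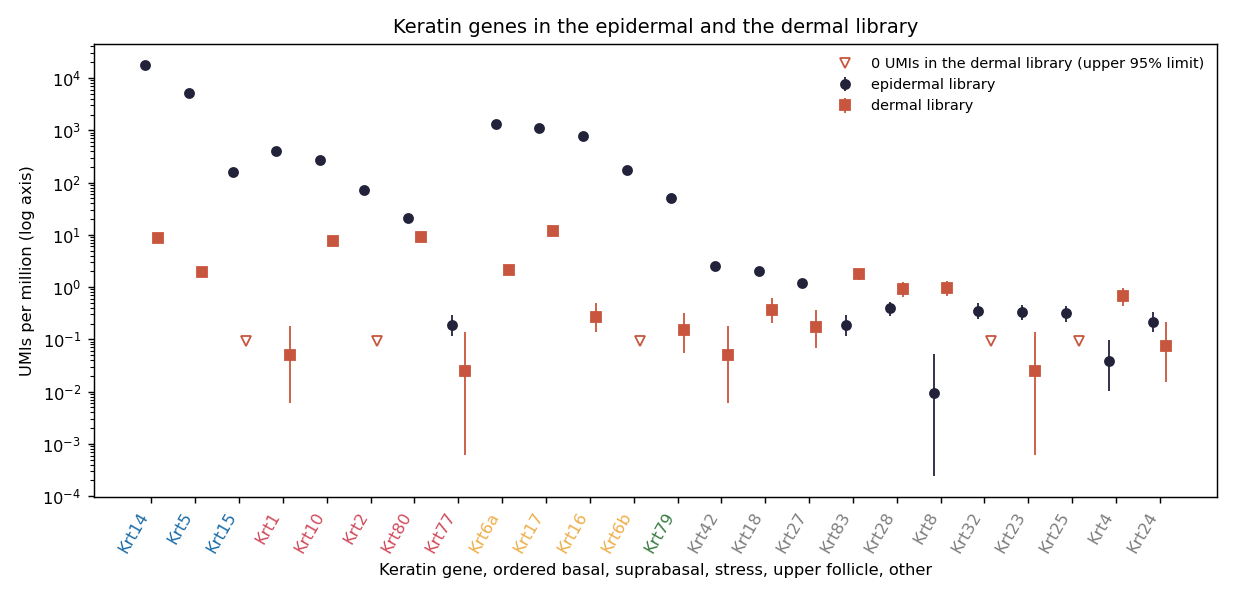
Levels of the 24 members in the epidermal (circles) and dermal (squares) library in CPM on a log axis, with exact 95% counting intervals and, for members at 0 in the dermal library, the upper limit (triangles). Basal keratins, the stress keratins Krt6a, Krt6b and Krt16 and the suprabasal Krt1 and Krt2 lie orders of magnitude above their dermal values. Krt17 differs 94.8-fold, Krt10 35.2-fold, Krt77 7.69-fold and Krt80 2.39-fold, and Krt83, Krt28, Krt8 and Krt4 lie higher in the dermal library.

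Without that cell, 1121 keratin UMIs were left in the dermal library, and they were not those of the epidermis. Krt80 gave 32.0% and Krt10 27.2% of them, while Krt14 gave 6.78% and Krt5 1.87%. Krt80, a type II keratin of many epithelia, was spread over 303 dermal cells with at most 4 UMIs in any. Its level was 25.0 CPM (20.7 to 29.9) in monocyte-like cells, 10.5 (7.51 to 14.3) and 9.73 (8.01 to 11.7) in the largest dendritic-like and macrophage-like clusters, and 3.28 (1.87 to 5.32) in fibroblast-like cells. The level in dermal monocyte-like cells was close to that in epidermal keratinocyte-like cells (21.8 CPM, 20.9 to 22.8). The monocyte-like cells were shallower (median 8855.5 against 33602.5 UMIs), so a like CPM meant fewer Krt80 UMIs per cell. Krt10 had another distribution: 29.9 CPM (25.2 to 35.1) in fibroblast-like cells, where 25.9% of cells held a UMI, 14.9 in T cell-like cells and 3.30 (2.34 to 4.53) in the largest macrophage-like cluster.

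The 4 members Krt8, Krt83, Krt28 and Krt4 were at least 2-fold higher in the dermal library, on few UMIs each, and were looked at in single clusters after their values were seen. Krt8, the type II keratin of simple epithelia, held 38 dermal UMIs and 1 epidermal UMI, and 31 of the 38 were in 16 fibroblast-like cells. Its type I partner Krt18 did not follow: it held 15 dermal and 214 epidermal UMIs, and 1 UMI in the fibroblast-like cells. Krt83, a hair shaft keratin, held 72 dermal and 20 epidermal UMIs, with 37 of the 72 in neutrophil-like and 22 in T cell-like cells. Krt28, an inner root sheath keratin, held 37 dermal and 41 epidermal UMIs, and 33 of the 37 were in 22 T cell-like cells, with up to 8 in 1 cell. In the epidermal library an unnamed cluster of 52 cells, led by Il22, Il17f and Il17a, held 8 UMIs each of Krt28 and Krt83, or 21.7 CPM (9.37 to 42.8) for either. Keratinocyte-like cells stood at 0.298 CPM for Krt28 and held 2 UMIs of Krt83. Krt4, a mucosal keratin, held 27 dermal and 4 epidermal UMIs. Of the 27, 19 were in 17 of the 130 cells of a mast cell or basophil-like cluster of low depth (median 877 UMIs), at 112 CPM (67.2 to 174). The direction for Krt28 turned when cells were weighted equally (log2 ratio of the epidermal to the dermal library 0.37), and with a stricter filter on cells it was -0.83, within 2-fold. That of Krt83 was -3.20, and -0.87 with cells weighted equally, again within 2-fold.

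The epidermal keratinocyte-like cells were regrouped without any keratin gene into 5 clusters, so their keratin levels were not used to form them. Cluster 0 (789 cells, led by Tslp and Il1r2) and cluster 1 (519 cells, led by Il24 and Areg) were basal-like, cluster 3 (696 cells) was basal-like and cycling, cluster 2 (476 cells) was spinous-like, and cluster 4 (326 cells, led by Cst6 and Chil1) was follicle-like. Clusters 0 and 1 are called non-cycling because 0 genes of the cycling marker list passed the naming thresholds, against 6 in cluster 3. Non-cycling thus refers to this list only, and groups of cycling cells in clusters 0 and 1 are not excluded. The leading genes of cluster 0 were Tslp, Il1r2 and Ung. In a finer grouping (Leiden resolution 1.0), a basal-like cluster of 200 cells was led by Tslp, Slfn9, Ung and Cdt1. Another of 212 cells was led by Lrg1, Cenpf and Ube2c, with 2 cycling markers passing. From which of the 5 clusters these cells came is not given here. None of the 5 clusters was granular-like. Lor and Flg, the chief granular layer genes, stood at 4.58 and 0.0308 CPM over the keratinocyte-like cells. Keratins took 2.85% of UMIs in cluster 0, 3.09% in cluster 1, 2.58% in the cycling, 3.23% in the spinous-like and 2.25% (2.24 to 2.26%) in the follicle-like cluster. The composition moved more than the total did. Basal keratins gave 94.3% of keratin UMIs in cluster 0 and 95.1% in the cycling cluster, but 84.8% in cluster 1, 66.2% in the spinous-like and 72.6% in the follicle-like cluster. Stress keratins took 4.53 and 3.98% in the first 2 of these, and 14.5, 23.0 and 24.1% in the other three. Suprabasal keratins reached 10.7% in the spinous-like cluster and lay between 0.606 and 1.23% in the others.

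**Figure D2:**
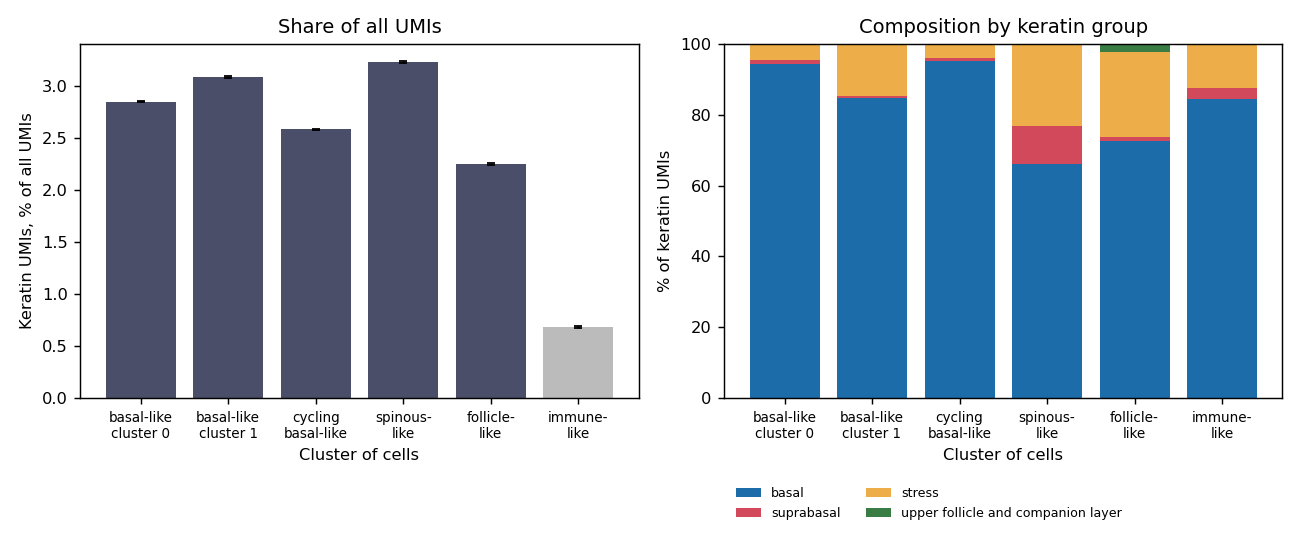
Left, keratin UMIs as a percentage of all UMIs in 5 keratinocyte-like clusters and in the pooled immune-like cells of the epidermal library, with exact 95% intervals; right, the percentage of keratin UMIs given by basal, suprabasal, stress and upper follicle keratins. The total ranges from 2.25 to 3.23% among keratinocyte-like clusters, while the basal share ranges from 66.2 to 95.1%, and immune-like cells have nearly the composition of the keratinocyte-like cells as a whole.

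Immune-like cells of the same library also held keratin UMIs. They held keratins at 0.682% of their UMIs, and 84.5% of these were basal, 12.3% stress and 3.05% suprabasal, against 84.8, 12.2 and 2.79% in all keratinocyte-like cells. Per gene, the level in immune-like cells was 24.2% of that in keratinocyte-like cells for Krt14, 23.1% for Krt5, 23.7% for Krt6a, 23.3% for Krt10 and 29.2% for Krt1. It was lower for Krt79 (16.4%), Krt2 (18.5%) and Krt17 (18.8%, 17.6 to 20.2), 23.9% for Krt15, and higher for Krt16 (30.4%, 28.5 to 32.5), Krt6b (32.4%) and Krt80 (34.1%). Keratinocyte genes that are no keratins gave 27.9% (Lgals7), 27.5% (Dmkn), 22.9% (Perp) and 21.9% (Sfn). The keratin share was 0.506% in Langerhans or dendritic-like and 0.819% in T cell-like cells. Over the pooled UMIs of the 43 neutrophil-like cells it was 1.78%, and the keratinocyte list stood as high there (17060 CPM) as in keratinocyte-like cells (17094 CPM). Pooled values weigh deeper cells more. The pooled immune-like levels given here and below include these 43 cells. Suprabasal keratins gave 6.27% of the keratin UMIs of these cells. Over single neutrophil-like cells the keratin share had a median of 0.916% and a 90th percentile of 2.32%. Immune-like cells were shallower, with a median of 2702.5 UMIs against 33602.5 in keratinocyte-like cells, so a like CPM stands for fewer UMIs per cell. Krt1 averaged 3.95 UMIs per cell in cluster 0 and 0.530 in immune-like cells, Krt10 2.40 and 0.280, and Krt16 5.84 and 1.05. The part of free RNA in the low keratin levels of either kind of cell was not tested.

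The basal pair was high in every keratinocyte-like cluster. Krt14 stood at 20360 CPM in cluster 0, 20703 in cluster 1, 18333 in the cycling, 17100 in the spinous-like and 12411 in the follicle-like cluster, against 4480 in immune-like cells. Krt5 stood at 6251, 5443, 5979, 4276 and 3752 CPM in the same order, against 1244. Both were lowest in the follicle-like cluster and next lowest in the spinous-like one. Over single cells the spread was modest: the 10th, 50th and 90th percentiles of Krt14 in cluster 0 were 14328, 19855 and 26503 CPM. Krt15 behaved otherwise. It stood at 265 CPM (258 to 272) in cluster 0, 260 (254 to 266) in the cycling cluster and 188 (180 to 197) in the follicle-like cluster, but at 53.3 (50.4 to 56.3) in cluster 1 and 38.3 (35.3 to 41.4) in the spinous-like cluster. Immune-like cells stood at 39.6 CPM (33.5 to 46.5), which was 0.172 UMIs per cell, against 1.32 in the spinous-like cluster. Its spread over cells was wide, with a median of 85.0 and a 90th percentile of 835 CPM in cluster 0.

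**Figure D3:**
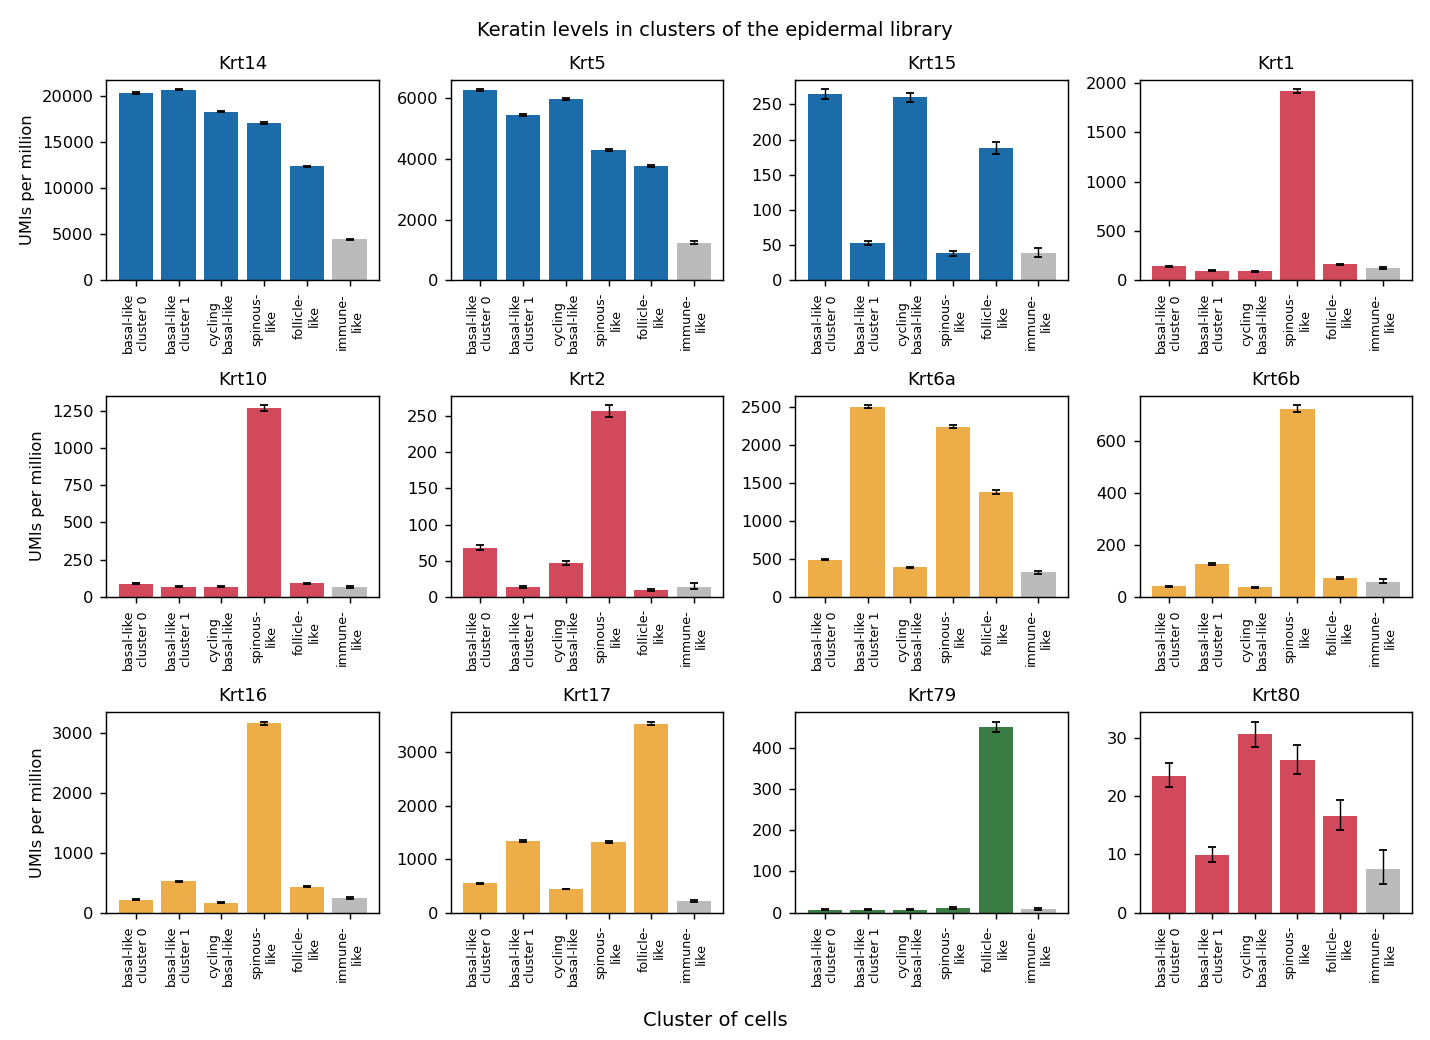
Levels of 12 keratins in 5 keratinocyte-like clusters and the pooled immune-like cells of the epidermal library, in CPM with exact 95% counting intervals; colours mark basal (blue), suprabasal (red), stress (orange) and upper follicle (green) keratins and grey the immune-like cells. Krt1, Krt10, Krt2, Krt6b and Krt16 are highest in the spinous-like cluster, Krt17 and Krt79 in the follicle-like cluster and Krt6a in basal-like cluster 1.

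Suprabasal keratins marked the spinous-like cluster. Krt1, which replaces KRT5 as cells leave the basal layer, stood at 1912 CPM (1891 to 1933) there, against 144 in cluster 0, 97.1 in cluster 1, 91.0 in the cycling and 162 in the follicle-like cluster. Immune-like cells stood at 122 CPM. Krt10, its type I partner, stood at 1273 CPM (1256 to 1291), against 66.4 to 88.3 in the other keratinocyte-like clusters and 64.5 in immune-like cells. Krt2, a type II keratin of the upper spinous and granular layers, stood at 258 CPM (250 to 265), 67.8 (64.4 to 71.4) in cluster 0 and 46.1 (43.5 to 48.8) in the cycling cluster. In cluster 1 and in the follicle-like cluster it was at 13.7 and 8.79 CPM, and in immune-like cells at 13.8, or 0.632, 0.270 and 0.0599 UMIs per cell. Krt80 lay between 10.0 CPM in cluster 1 and 30.6 CPM in the cycling cluster, against 7.44 in immune-like cells. Krt77, a type II keratin of sweat duct and interfollicular epidermis, held 20 epidermal UMIs, with at most 2 in a cell.

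Taking both non-cycling basal-like clusters (1308 cells) as the reference, 5 of the 17 members measured were at least 2-fold higher in spinous-like cells, where 3.71% of 12122 genes were, and 2 were at least 2-fold lower, where 7.33% were. Krt10 was 16.7-fold (16.1 to 17.3), Krt1 16.0-fold (15.6 to 16.5) and Krt2 6.55-fold higher (6.19 to 6.92). Against this pooled reference the stress keratins split: Krt6b was 8.56-fold (8.25 to 8.88) and Krt16 8.38-fold higher (8.24 to 8.53), whereas Krt6a (1.45-fold, 1.43 to 1.47) and Krt17 (1.37-fold, 1.35 to 1.39) stayed within 2-fold. Krt6a stood at 486 CPM in cluster 0 and 2504 in cluster 1, against 2242 in spinous-like cells. Krt17 was 2.43-fold higher in cluster 1 than in cluster 0. Ratios to cluster 0 alone were not computed, so the split describes the pooled reference only. Krt15 was lower by 4.01-fold (3.70 to 4.36). Krt23 was the other member past 2-fold, on 2 and 19 UMIs (0.293-fold, 0.0331 to 1.21, an interval that includes 1). The log2 ratio of Krt23 was -0.30 with a pseudocount of 5 UMIs and -0.79 at a Leiden resolution of 1.0, both within 2-fold. Krt14 (0.833-fold) and Krt5 (0.734-fold) remained within 2-fold. The median log2 ratio was 0.62 over the members and -0.16 over all genes.

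The spinous-like cells were not uniform in their keratins. The 10th, 50th and 90th percentiles over cells were 62.3, 652 and 8254 CPM for Krt1 and 137, 1629 and 9458 CPM for Krt16. At a Leiden resolution of 1.0, a finer grouping whose parts were compared after their values were seen, 2 spinous-like clusters appeared, of which 207 of 211 and all 132 cells came from the former spinous-like cluster. They held 339 of its 476 cells, and the rest fell in clusters given other names. The cluster led by Sprr1b and Sprr2b (211 cells) had the higher levels of the stress keratins: Krt16 at 4691 CPM, Krt6a at 3711, Krt17 at 1965 and Krt6b at 1215. The one led by Calm4 and Elovl4 (132 cells) had the higher levels of the differentiation keratins: Krt1 at 6067 CPM, Krt10 at 4314 and Krt2 at 789. Neither set was confined to a single cluster, as the following ratios show. Between them, 3 of 12 members were at least 2-fold higher in the Sprr-led cluster, where 7.74% of 9656 genes were: Krt6a (5.71-fold, 5.47 to 5.96), Krt6b (3.81-fold, 3.58 to 4.06) and Krt17 (3.08-fold, 2.94 to 3.22). Another 3 were at least 2-fold higher in the Calm4-led cluster, where 4.26% were: Krt2 (13.4-fold, 12.2 to 14.8), Krt10 (9.48-fold, 9.15 to 9.83) and Krt1 (7.48-fold, 7.28 to 7.69). Krt16 was 1.78-fold higher in the Sprr-led cluster (1.74 to 1.82) and stayed within 2-fold.

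Over the 476 spinous-like cells levels were also compared cell by cell. Spearman's rho of per-cell CPM was 0.71 for Krt1 with Krt10, 0.72 for Krt6a with Krt6b, 0.71 for Krt6a with Krt17, 0.73 for Krt6b with Krt16 and 0.66 for Krt6a with Krt16. It was -0.43 for Krt6a with Krt1, -0.41 for Krt6a with Krt10 and -0.43 for Krt6a with Krt2. The other stress keratins gave weaker values with Krt1 and Krt10, -0.32 and -0.30 for Krt17, -0.11 and -0.13 for Krt6b, and 0.02 and -0.03 for Krt16. Krt2 gave 0.17 with Krt1 and 0.23 with Krt10, and -0.35 with Krt6b, -0.30 with Krt16 and -0.35 with Krt17. Krt5 with Krt14 gave between 0.57 and 0.70 in each of the 5 clusters. In cluster 0, Krt1 with Krt10 gave 0.09. These cells share 1 library, and the keratins of a cell share its total, so the values only describe the library.

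**Figure D4:**
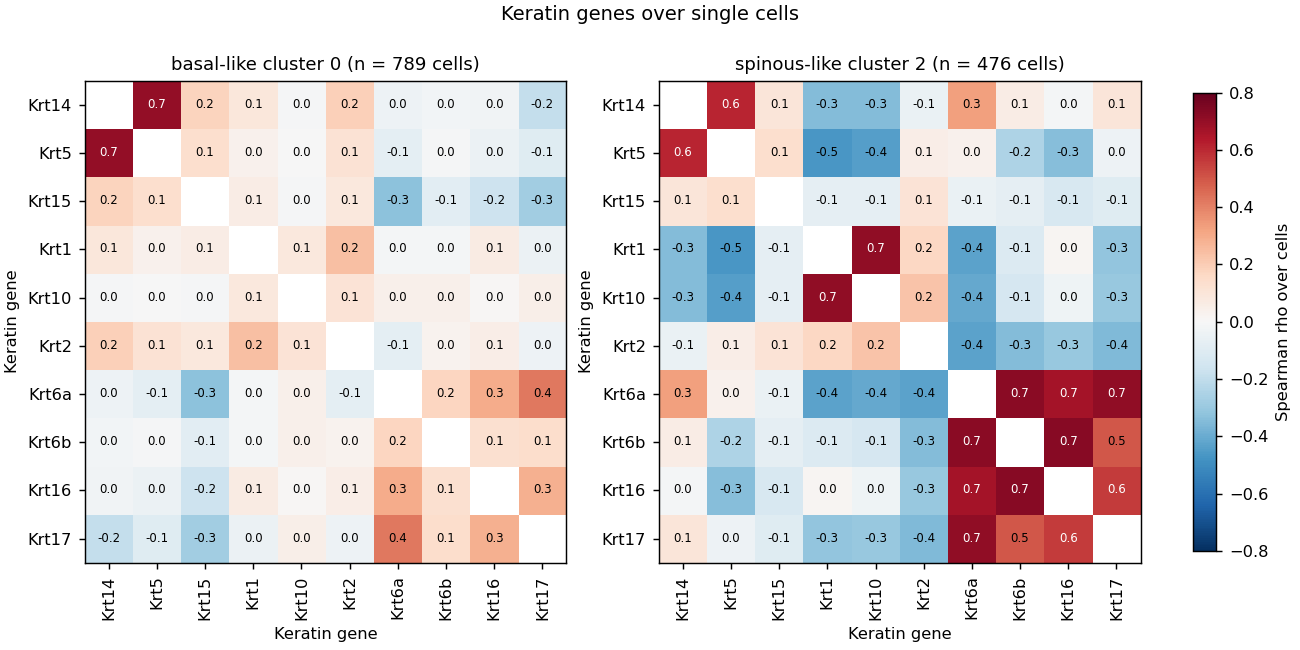
Spearman's rho over single cells between 10 keratins, in CPM per cell, for basal-like cluster 0 (789 cells) and the spinous-like cluster (476 cells). In the spinous-like cells a block of Krt6a, Krt6b, Krt16 and Krt17 and the pair Krt1 and Krt10 (0.71) stand out, with negative values between Krt6a and Krt1 (-0.43); in cluster 0 Krt5 with Krt14 (0.70) is highest, followed by Krt6a with Krt17 (0.42).

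Stress keratins also differed between the 2 basal-like clusters, a comparison added after their values were seen. Cluster 1 was deeper (median 47776 UMIs, against 27290 in cluster 0) and was led by Il24, Areg and Csf3. Krt6a stood at 2504 CPM (2484 to 2524) in cluster 1 and 486 (477 to 496) in cluster 0, a 5.15-fold difference (5.04 to 5.26). The 10th percentile over cells of cluster 1 (670 CPM) lay above the median of cluster 0 (309 CPM). Krt6b was 3.22-fold (2.98 to 3.48), Krt16 2.46-fold (2.38 to 2.55) and Krt17 2.43-fold higher (2.38 to 2.48), and so was Krt18 (2.41-fold, 1.58 to 3.77, 83 and 31 UMIs). Together these were 5 of 14 members, where 4.47% of 11710 genes were at least 2-fold higher. Krt15 (4.97-fold, 4.67 to 5.28), Krt2 (4.96-fold, 4.40 to 5.61) and Krt80 (2.35-fold, 2.01 to 2.75) were lower in cluster 1, 3 members where 4.63% of genes were. Krt14 (1.02-fold) and Krt5 (0.871-fold) stayed within 2-fold. The T cell list summed to 180 CPM in cluster 1 and 87.9 in cluster 0, with 0 of its 7 genes at 0 in either, and its part in these differences was not tested.

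Against both non-cycling clusters, 7 of 17 members were at least 2-fold lower in the cycling cluster, where 2.90% of 12260 genes were, and 0 were at least 2-fold higher, where 1.80% were. The 7 were the 4 stress keratins (Krt6a lower by 4.01-fold, Krt6b by 2.38-fold, Krt16 by 2.27-fold and Krt17 by 2.19-fold) and Krt18, Krt23 and Krt42. With the stricter filter on cells the log2 ratios of Krt16, Krt17 and Krt6b were -0.85, -0.82 and -0.69, within 2-fold. For the 4 stress keratins the call rested on cluster 1 being in the reference. Against cluster 0 alone, a comparison added after these values were seen, Krt6a was 0.793-fold (0.772 to 0.815), Krt16 0.780-fold, Krt17 0.797-fold and Krt6b 0.909-fold, and 1 of 15 members, Krt25 with 7 and 14 UMIs, was at least 2-fold lower, where 0.938% of genes were. No member was at least 2-fold higher there, where 2.07% of genes were. Krt18 (0.550-fold, 0.297 to 0.996, 20 and 31 UMIs) and Krt42 (0.625-fold, 0.260 to 1.46, 11 and 15 UMIs) were within 2-fold there, and Krt23, with 2 and 6 UMIs, was under the 20 UMIs needed for a comparison. Krt15 was 0.983-fold (0.949 to 1.02).

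The follicle-like cluster differed most from the basal-like reference in Krt79, and 10 of 18 members measured stayed within 2-fold. Krt79, a type II keratin of the upper follicle and the sebaceous duct, stood at 450 CPM (437 to 464), against 7.21 (6.45 to 8.03) in the basal-like reference and 8.76 (6.03 to 12.3) in immune-like cells, a ratio of 62.5 (55.9 to 70.1) to the former. A Krt79 UMI was seen in 55.2% of follicle-like cells, in 18.4 to 28.7% of the cells of the other keratinocyte-like clusters and in 3.57% of immune-like cells (median 31195.5 and 2702.5 UMIs in the first and last). Drawn down to 1000 UMIs a cell (0 follicle-like and 27 immune-like cells were shallower), the shares were 16.0%, 0.772 to 1.15% and 1.07%. Within the cluster Krt79 ranged from a median of 23.4 to a 90th percentile of 1537 and a maximum of 16036 CPM. Over these 326 cells its rho was -0.46 with Krt5 and -0.33 with Krt14.

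Of 18 members, 7 were at least 2-fold higher in follicle-like than in basal-like cells, where 8% of 12191 genes were, and 1, Krt2, was at least 2-fold lower, where 3.60% were. Krt17 was 3.65-fold higher (3.60 to 3.70), at 3534 CPM the highest of any keratinocyte-like cluster, while its usual partners Krt6a (0.892-fold) and Krt6b (0.841-fold) and the other type I stress keratin Krt16 (1.15-fold) were not. These ratios hold for the pooled reference, which includes cluster 1. Krt6a stood at 1381 CPM in follicle-like cells, against 486 in cluster 0 and 2504 in cluster 1. Krt16 was 2.46-fold higher in cluster 1 than in cluster 0, and ratios to cluster 0 alone were not computed. Apart from Krt79, the other members that were higher were low genes. Krt42, a type I keratin next to Krt17, was 20.6-fold higher (14.7 to 29.5) with 190 of the library's 269 UMIs, 52 of them in 1 cell. Krt27, an inner root sheath keratin, was 20.9-fold higher (12.6 to 36.3) with 87 of 124 UMIs in 54 cells. Krt32, Krt28 and Krt23 were 8.21-fold (3.59 to 19.9), 4.14-fold (1.58 to 10.7) and 2.88-fold higher (1.27 to 6.25), on 18, 10 and 12 UMIs. Without the richest cell of each group the log2 ratio of Krt23 was 0.40, below 2-fold. Of the type II inner root sheath genes, Krt71 reached 15 UMIs over both libraries and Krt72 3.

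**Figure D5:**
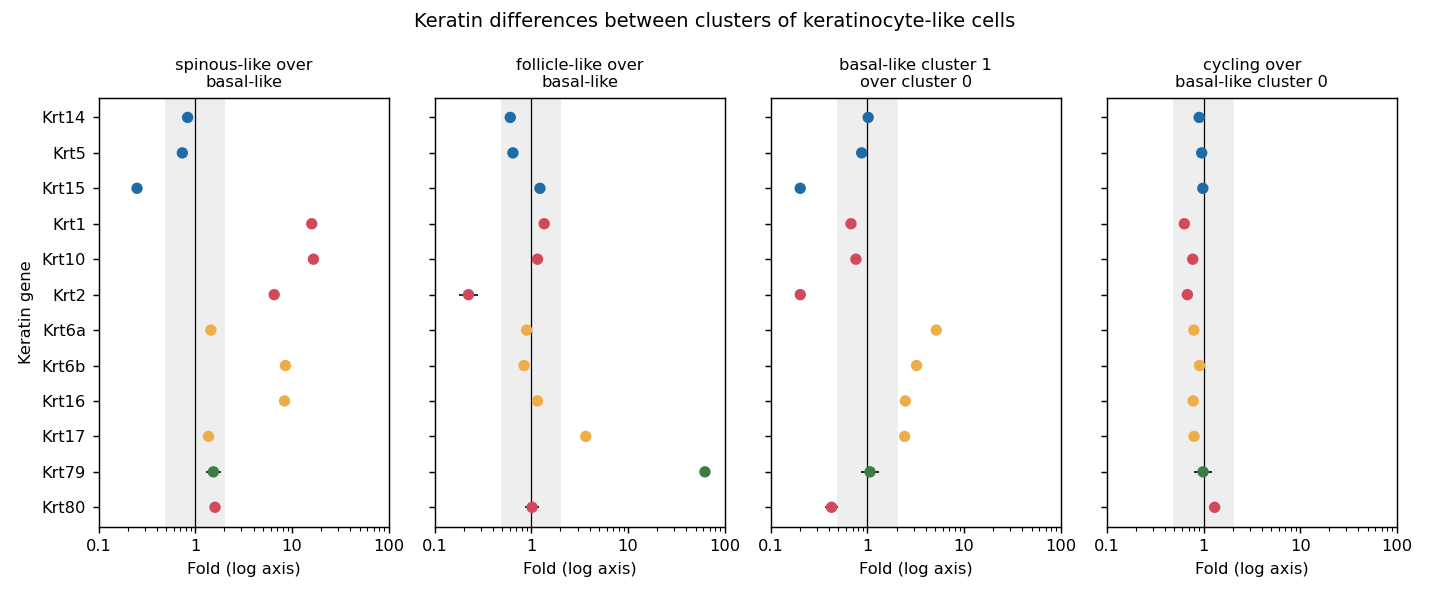
Ratio of levels of 12 keratins between clusters of keratinocyte-like cells, on log axes with exact 95% counting intervals (most are narrower than the point); the grey band marks ratios within 2-fold. Spinous-like cells differ most in Krt10 (16.7-fold) and Krt1 (16.0-fold), follicle-like cells in Krt79 (62.5-fold), basal-like cluster 1 in Krt6a (5.15-fold), and the cycling cluster lies within 2-fold of cluster 0 for all 12.

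In all, 8 type I and type II pairs were followed in the same cell. Over the 2806 keratinocyte-like cells, Krt5 with Krt14 was seen in 99.9%, Krt6a with Krt16 in 96.8%, Krt1 with Krt10 in 81.0% and Krt6b with Krt17 in 70.4% of cells. Immune-like cells also held UMIs of these genes, and pairs were not counted in them. Shares rise with depth, so pairs were also counted in 5000 UMIs drawn from each keratinocyte-like cell, for which 55 cells were too shallow. The draw evens out depth only. Krt5 with Krt14 was then seen in 99.9%, Krt6a with Krt16 in 56.7% (54.9 to 58.6), Krt6b with Krt17 in 23.6% and Krt1 with Krt10 in 17.7% (16.3 to 19.2). Singly, in the same draw, Krt6a was seen in 84.5% and Krt16 in 65.4% of cells. Krt6b was seen in 27.0% and Krt17 in 79.9%, and Krt1 in 41.8% and Krt10 in 34.9%. Whether partners met more often than their single shares give was not tested. By cluster, Krt1 with Krt10 ranged from 9.64% in the cycling to 51.2% in the spinous-like cluster. Krt6a with Krt16 was seen in 80.1% of spinous-like and 74.2% of cluster 1 cells, against 45.0% in cluster 0. Krt79 with Krt17 was seen in 29.2% of follicle-like cells, where Krt79 was in 32.9% and Krt17 in 93.4% of cells, and in 1.44 to 3.28% of the others. Krt8 with Krt18 was seen in 0 of 2806 cells (upper limit 0.131%), and Krt8 held 1 UMI in the library. Type I genes gave between 70.8 and 75.4% of keratin UMIs in each of the 5 clusters.

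Genes that anchor and regulate keratin filaments were counted as lists. Of 14 desmosome genes, which join keratin to cell contacts, all 14 were at least 2-fold higher in the epidermal library, where 24.9% of all genes were, with a median log2 ratio of 7.22 (-0.03 over all genes), among them Dsp (2096-fold, 898 to 6454) and Pkp3 (3.82-fold, 3.61 to 4.04). Of 9 hemidesmosome genes, which join keratin to the basement membrane, 8 were (median 4.42), and Plec, a linker that many cell types use, was 1.57-fold higher. Of 14 keratin regulators 9 were at least 2-fold higher (median 4.90), including Trp63 (238-fold, 144 to 425), a main regulator of stratified epithelia, and Ets1 was lower by 5.43-fold, where 30.9% of all genes were at least 2-fold lower. Between spinous-like and basal-like cells, 8 of 9 hemidesmosome genes were at least 2-fold lower (median log2 ratio -1.45), and 6 of 14 desmosome genes were higher and 1 lower (median 0.84). Of all genes 3.71% were higher and 7.33% lower (median -0.16). Several of these served as markers when the clusters were named (Col17a1, Itga6, Itgb4, Lamb3 and Dst; Dsg1a and Dsc1). Of those that did not, Plec and Lama3 were lower (0.393- and 0.317-fold) and Dsg1b (16.1-fold), Dsc2, Evpl and Ppl higher. Of 14 regulators, 4 were at least 2-fold higher in spinous-like cells: Grhl3 (5.50-fold, 4.25 to 7.16), Foxn1 (5.43-fold, 4.16 to 7.14), Grhl1 (2.51-fold) and Ovol1 (2.22-fold). Ets1 was lower, and the median of the list was 0.32. In basal-like cluster 1, Lama3 was 5.06-fold (4.31 to 5.98) and Lamb3 2.31-fold higher than in cluster 0, where 4.47% of all genes were at least 2-fold higher.

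Near-identical copies could share reads. In the last 500 bases of the longest GENCODE transcript, 17.2% of 31-base windows of Krt14 and of Krt17 also occurred in another keratin transcript. The share was 11.9% for Krt27, 8.30% for Krt28, 5.32% for Krt16, 4.26% for Krt83 and 2.34% for Krt42. It was 0 for the other members, Krt6a and Krt6b among them. No 90-base window was shared by any member.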

How the data were processed

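Single-cell RNA-seq of 1 dermal (CD45-sorted) and 1 epidermal library was analysed. The authors deposited UMI counts per gene and cell, not normalized, made with Cell Ranger 3.0.2 (per the file headers) on mm10, with CASAVA also named in the submitters' processing notes; the annotation version is not given in the sources used here. Cells under 200 genes or over 10% mitochondrial UMIs were removed, with no upper limit on genes. Cells were clustered by Leiden (scanpy 1.11.5, igraph 0.11.9) and keratinocyte-like cells regrouped, both without keratin genes, and clusters were named from fixed markers by thresholds set after the clusters were seen. Scrublet called 0 and 8 cells and was not used, so doublets were kept, and removing them at 0.8% per 1000 cells was an alternative.

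Counts were summed per cluster and divided by summed UMIs. Intervals are exact Poisson for levels, Clopper-Pearson for shares and conditional binomial for ratios (Python 3.11.15, numpy 2.4.6, scipy 1.17.1, pandas 2.3.3). A gene was compared where it held 20 or more UMIs in the groups together, log2 ratios and 2-fold calls used a pseudocount of 0.5 UMIs, and scripts were tested on simulated data. With 1 library per tissue there were no tests. Members and lists were chosen with earlier results of these data known. The comparisons of basal-like clusters 1 and 0, of the finer spinous-like clusters, of cycling cells with cluster 0, and without the keratin-rich dermal cell were added after seeing the data. Genes named were the basal, suprabasal, stress and upper follicle members and, of the others, the 3 with most UMIs (Krt42, Krt18, Krt27); Krt83, Krt28, Krt8, Krt4, Krt32, Krt23 and Krt25 were named after their values were seen. No keratinocyte-like dermal cluster and no granular-like cluster was found, so comparisons planned on them were not made. Values of 1 gene of the lists are not reported here.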

Additional observations from a re-analysis of the deposited data

How the results depend on the processing

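No paired analysis was possible because dermis and epidermis were sequenced as 1 library each. For the same reason no replicate could be left out, and 2 planned comparisons, of keratinocyte-like cells between the libraries and of granular-like with spinous-like cells, could not be made. Over 11 planned and 2 added settings, 80 of 97 counts and shares stayed close to the values given (counts by a fold limit, shares within their counting interval), and 17 moved. Of the values of single genes and pairs, 528 stayed within their counting interval, 235 moved out of it, and 2 of members past 2-fold turned direction. Turns of smaller ratios were counted among the 528 and 235. Of all 717 single-gene values under these settings, 687 kept their direction. Of 419 values of members past 2-fold, 417 kept their direction and 20 no longer passed 2-fold. At a minimum of 100 UMIs there were 15 members, 0 members lower in the epidermal library, 1 lower in spinous-like cells and 4 higher in follicle-like cells, since low genes were no longer measured. The epidermal keratin share was 2.65% in cells of 200 to 5000 genes with no more than 5% mitochondrial UMIs, 2.74% with no filter on cells and 2.76% with doublets removed. The dermal share was 0.00278% both with doublets removed and without the keratin-rich cell. With the mean of per-cell CPM, 2 members were lower in the epidermal library, and Krt28 turned to a log2 ratio of 0.37. Members lower in spinous-like cells numbered 1 with a pseudocount of 5 UMIs and 4 with no filter on cells. Members lower in the cycling cluster numbered 2 with the stricter filter, where Krt42 turned to a log2 ratio of 0.0039, and 1 against cluster 0 alone. Members higher in it numbered 1 with doublets removed and 2 at a resolution of 1.0. Pairs seen in over 50% of cells numbered 4 at full depth and 2 when thinned to 5000 UMIs. Apart from the settings whose construction shows it, the cause was not tested. Depth limits the members with few UMIs, whose intervals span several fold.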

Other observations

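The 3 epidermal clusters left unnamed entered the comparison of all cells of the libraries, but no ratio between clusters. Of these, the one led by Dct and Pmel (197 cells) held keratins at 2.82% of its UMIs. A cluster of low depth led by haemoglobin genes (250 cells, median 1015 UMIs) held them at 2.57% (2.53 to 2.60%). The third, led by Il22 and Il17f (52 cells), held them at 0.930% (0.899 to 0.961%). In the cluster led by Dct and Pmel, all 9 genes of the keratinocyte list passed the naming thresholds, and 0 of any other cell type list. The haemoglobin-led cluster passed 6 keratinocyte and 3 Langerhans or dendritic genes, and the third passed 0 keratinocyte and 7 T cell genes.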
